A study of Mus musculus with 2 samples.

Results

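The subject here is a set of 514 droplet barcodes in a single-cell RNA library of sorted tumour leukocytes that the deposited annotation leaves out and that carry fibroblast transcripts. A barcode was a member when it was absent from the library's annotation, held at least 500 gene UMIs, took at least 85% of its hashtag UMIs from a single hashtag, and held at least 10 UMIs of mouse Col3a1 and fewer than 10 of Cpa3. A UMI (unique molecular identifier) stands for one captured transcript molecule, and a hashtag is the antibody-linked tag that marks the mouse of origin. Of 16291 barcodes with at least 500 UMIs, 5815 were not annotated and 10476 were. Of the 5815, 3018 also passed the hashtag minimum, and 514 of them passed the Col3a1 minimum. Another 217 unannotated barcodes had at least 10 Col3a1 UMIs but failed the hashtag minimum, and 0 barcodes met the Col3a1 and the Cpa3 minimum together. Since Col3a1 chose the members, their Col3a1 level and everything that follows from large barcodes being likelier to reach 10 UMIs are given as description. They are called Col3a1-high barcodes here, for reasons given below with their markers.

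The library comes from MC38 tumours, a transplantable mouse colon carcinoma line, grown under the skin of the right flank in mice that carry human Fc receptors. CD45, the surface protein encoded by Ptprc that marks leukocytes, was used to sort the cells. Each mouse belonged to 1 of 4 groups, set by its treatment. GA-aFuc was named agonist and Fc-enhanced in the deposited annotation, and its 2 mice gave 131 and 50 members. GITR/Syn GA-aFuc was named non-agonist and Fc-enhanced, and its 2 mice gave 66 and 85 members. N297A, named agonist and Fc-null, gave 130 members from 1 mouse, and 1 Untreated mouse gave 52. Antibodies were anti-mouse GITR variants with a human IgG1 constant region, given at 100 µg per mouse in 2 injections 3 days apart, while Untreated mice received PBS, and tumours were taken 4 days post treatment. GITR is a costimulatory receptor of T cells. The study had 3 mice per treatment, of which the 6 in this library, numbered 7 to 12 by the labels, are analysed here, pooled after hashing. Sex, age and the promoter of the receptor transgenes are not given in the sources used here.

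Fibroblasts build and remodel the extracellular matrix: they secrete fibrillar collagens, which need dedicated chaperones and hydroxylases to fold, and proteoglycans such as decorin that bind the collagen fibril. In tumours they are also a source of chemokines, growth factors and matrix-degrading enzymes. Transplanted tumour lines can themselves carry mesenchymal transcripts, so single matrix genes do not separate stromal cells of the host from cells of the implant.

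The members were large. Their median was 57242 UMIs, with mouse medians between 49974 and 67967, against a median of 12075 in annotated cells. The largest annotated cell held 31460 UMIs, and 447 of the 514 members (87.0%) lay above it. Of all unannotated barcodes, 647 exceeded that size. Members had a median of 7190 detected genes and 3.68% mitochondrial UMIs, against 3518.5 genes and 1.77% in annotated cells, and 32 members had at least 10% mitochondrial UMIs. Summed over members, a mouse gave between 2473406 and 7849793 UMIs. The hashtag minimum removes barcodes mixed between mice, and a barcode that holds 2 cells of the same mouse would pass it. No doublet caller was run.

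**Figure D1:**
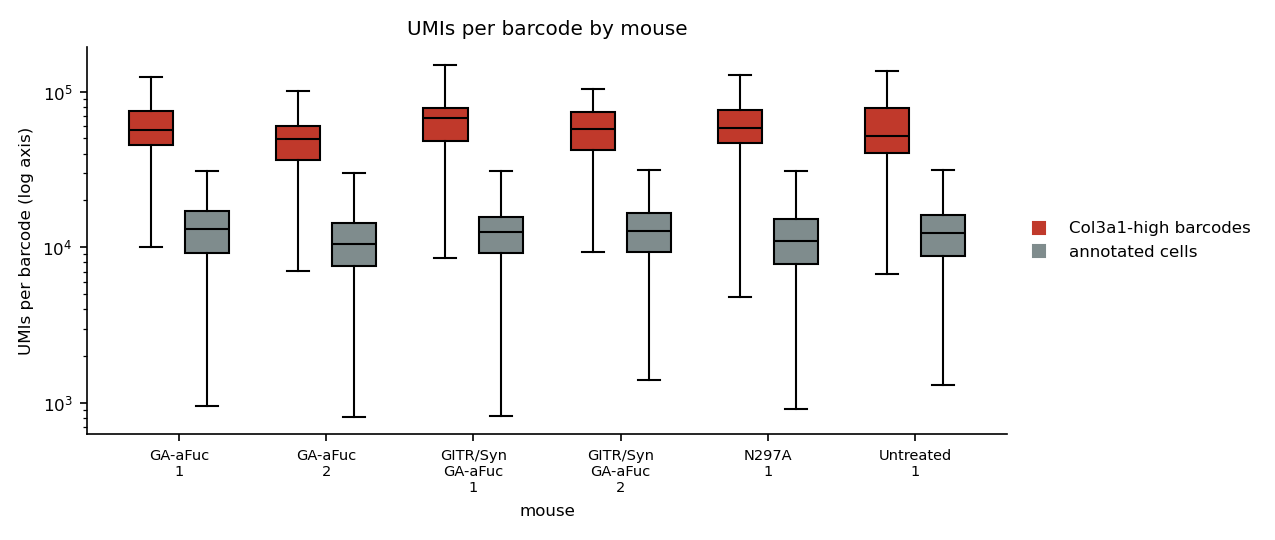
UMIs per barcode on a log axis for each of the 6 mice, for the Col3a1-high barcodes and the annotated cells: the box spans the quartiles, the line is the median and the whiskers reach the lowest and highest barcode. Every mouse has a member median (49974 to 67967 UMIs) above its largest annotated cell (31460 UMIs in the highest).

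Values per gene are given below as CPM, UMIs of the gene per 1000000 UMIs of the mouse's members, summed, one value per mouse. The assay counts 3′ ends, so CPM are not divided by length and are compared between samples, not between genes. A mean ± SD is over the 6 mice. Levels in annotated macrophages, the largest annotated class with 5725 cells, and in free RNA, the content of 165202 droplets with 10 to under 100 UMIs, stand beside them.

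Of the 6 markers that define the label, 5 were present in every mouse and the sixth was nearly absent. Col3a1, the type III collagen chain used for the choice, stood at 874 and 841 CPM with GA-aFuc, 779.9 and 727 CPM with GITR/Syn GA-aFuc, 838 CPM with N297A and 958 CPM for Untreated, against 8.07 CPM in macrophages and 79.3 CPM in free RNA. Dcn encodes decorin. It had 533 and 318 CPM with GA-aFuc, 476 and 485 CPM with GITR/Syn GA-aFuc, 383 CPM with N297A and 499.7 CPM for Untreated, and macrophages had 5.30 CPM. Pdgfrb, a platelet-derived growth factor receptor of mesenchymal cells, lay between 16.9 and 26.3 CPM over the 6 mice. The 2 chains of type I collagen were uneven between mice. Col1a1 had 135 and 137 CPM with GA-aFuc, 179 and 74.9 CPM with GITR/Syn GA-aFuc, 374 CPM with N297A and 338 CPM for Untreated, and Col1a2 had 38.1 and 24.3 CPM with GA-aFuc, 103 and 39.4 CPM with GITR/Syn GA-aFuc, 159 CPM with N297A and 45.2 CPM for Untreated. A single N297A barcode held 832 of the 6420 Col1a1 UMIs of the members, and a single N297A barcode held 959 of the 2340 Col1a2 UMIs. Lum, which encodes the proteoglycan lumican, averaged 0.881 ± 1.69 CPM and was at 0 in 3 of the 6 mice.

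Further fibroblast markers were split in the same way. S100a4, a calcium-binding protein of motile mesenchymal cells, averaged 2025 ± 77.4 CPM against 101 CPM in macrophages, and Mmp2, gelatinase A, averaged 58.3 ± 6.92 CPM against 4.84 CPM in macrophages. Pdgfra averaged 6.84 ± 1.85 CPM, while Thy1, a surface glycoprotein of fibroblasts, averaged 1.01 ± 0.773 CPM and Fap, the fibroblast activation protein, 1.19 ± 1.29 CPM. Acta2, the smooth muscle actin of contractile myofibroblasts, averaged 3.85 ± 4.16 CPM. In every mouse matrix transcripts were thus abundant while Lum, Thy1, Fap and Acta2 were low. Together with the sex-linked transcripts below, these values do not match the fibroblast label, which is why the barcodes are named by Col3a1. Whether they are stromal cells of the host or cells of the implanted line was not tested, since the library holds no sample of MC38 cells grown alone.

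**Figure D2:**
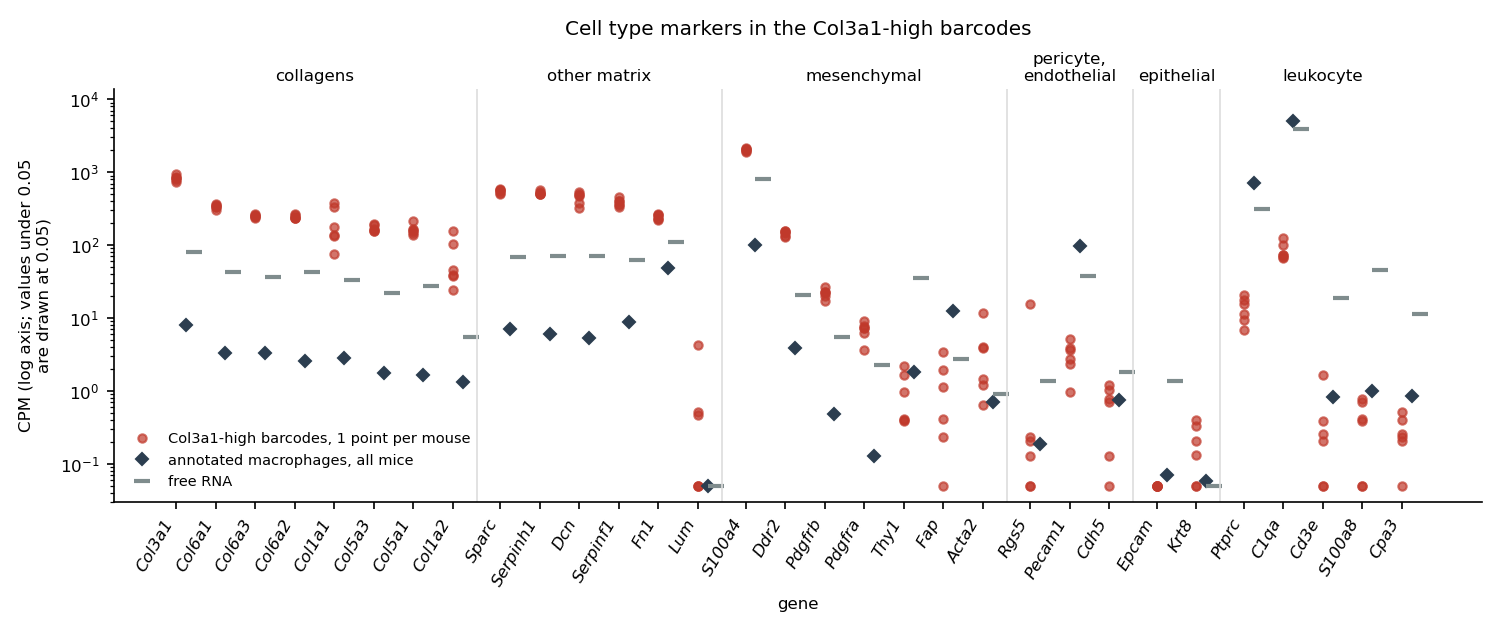
CPM on a log axis of marker genes in the Col3a1-high barcodes (1 point per mouse), in annotated macrophages (diamond) and in free RNA (bar), with values under 0.05 drawn at 0.05. Col3a1, Col6a1, Sparc and Dcn stand far above macrophages in all 6 mice, while Lum, Thy1, Fap, Epcam and Krt8 lie near the floor.

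Other cell types that a tumour could hold had little RNA in the members. The 8 endothelial markers summed to between 3.27 and 10.5 CPM per mouse, with Tie1 at 0, and all 8 averaged under 5 CPM. The 9 epithelial markers summed to between 0.412 and 1.30 CPM, and Epcam, Krt18, Krt19, Krt20 and Cldn3 were at 0 in every mouse. MC38 is derived from a colon carcinoma, and keratins and Epcam are the usual epithelial markers of such tumours. Whether MC38 cells themselves carry these transcripts was not tested, since no sample of the line alone is in the library. Mesothelial markers reached at most 0.892 CPM in a mouse, with Wt1, Lrrn4 and Upk1b at 0 throughout. The 8 pericyte markers summed to between 18.6 and 51.4 CPM, of which Cspg4 averaged 18.8 CPM. The 6 smooth muscle markers summed to at most 21.4 CPM, the 5 Schwann cell markers to at most 9.77 CPM, the 6 skeletal muscle markers to at most 4.33 CPM and the 5 adipocyte markers to at most 4.12 CPM. Mast cell markers, among them Cpa3, summed to between 1.96 and 3.18 CPM, and no member held more than 1 Cpa3 UMI.

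Leukocyte RNA was present at a low share. The 8 pan-leukocyte genes summed to 342 and 287 CPM with GA-aFuc, 208 and 255 CPM with GITR/Syn GA-aFuc, 189.9 CPM with N297A and 190.1 CPM for Untreated, against 11604 CPM in macrophages and 11732 CPM in free RNA. The 8 macrophage genes summed to 545 and 412 CPM with GA-aFuc, 344 and 472 CPM with GITR/Syn GA-aFuc, 295 CPM with N297A and 318 CPM for Untreated, against 21939 CPM in macrophages. Over 22 genes of the pan-leukocyte, macrophage and MHC class II lists, the members stood at 1.01% to 5.56% of the macrophage level, with a median of 2.11%. Ptprc, the gene of the sorted protein, had at least 1 UMI in 180 of 514 members (35.0%), against 99.0% of annotated cells, although the members' median depth was 57242 UMIs and that of annotated cells 12075. Its level was 17.5 and 20.6 CPM with GA-aFuc, 15.4 and 11.3 CPM with GITR/Syn GA-aFuc, 9.25 CPM with N297A and 6.87 CPM for Untreated, against 714 CPM in macrophages. The T cell list summed to at most 7.09 CPM, the B cell list to at most 1.65 CPM and the neutrophil list to at most 3.65 CPM in a mouse. The target of the antibodies was nearly absent: Tnfrsf18, which encodes GITR, averaged 0.409 ± 0.339 CPM, against 789 CPM in annotated Tregs, and its ligand gene Tnfsf18 averaged 0.285 ± 0.269 CPM.

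Sex-linked transcripts of the members did not follow those of the leukocytes in the same mice. Xist RNA silences the inactive X chromosome. In GA-aFuc mouse 1 it had 7.26 CPM in the members and 567 CPM in annotated cells, and in GITR/Syn GA-aFuc mouse 1 it had 10.6 CPM in the members and 551 CPM in annotated cells. The members thus stood at 1.28% and 1.93% of the annotated level, and in the other 4 mice annotated cells had under 2 CPM. In those mice the Y-linked genes Uty, Ddx3y, Eif2s3y and Kdm5d were summed. GA-aFuc mouse 2 had 3.64 CPM of them in the members and 206 CPM in annotated cells (1.77%), and GITR/Syn GA-aFuc mouse 2 had 2.68 CPM in the members and 202 CPM in annotated cells (1.33%). The N297A mouse had 5.60 CPM in the members and 181 CPM in annotated cells (3.10%), and the Untreated mouse had 2.62 CPM in the members and 197 CPM in annotated cells (1.33%). So the members lacked the leukocytes' level of Xist in the 2 mice whose leukocytes had it, and of the Y-linked genes in the other 4. Where the leukocytes themselves were low, both were low: the Y-linked sum was 1.91 CPM in the members and 2.28 CPM in annotated cells of GA-aFuc mouse 1, and 1.18 CPM in the members and 2.55 CPM in annotated cells of GITR/Syn GA-aFuc mouse 1. The median of the leukocyte genes above was 2.11% of the macrophage level. Of the 57 Xist UMIs in members of GA-aFuc mouse 1, 45 were in 10 barcodes of a group led by Cd74 and C1qa, described below. Of the 45 in GITR/Syn GA-aFuc mouse 1, 35 were in the single barcode of that group.

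**Figure D3:**
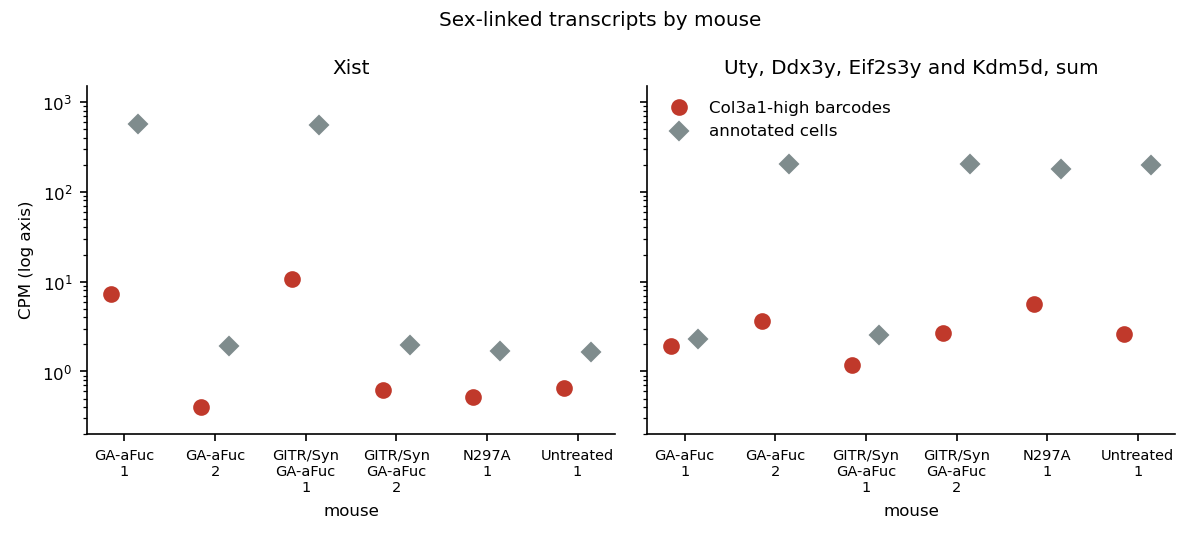
CPM on a log axis of Xist (left) and of 4 Y-linked genes summed (right) by mouse, for the Col3a1-high barcodes (circles) and the annotated cells (diamonds). The members stay at 10.6 CPM or below in every mouse, also where the annotated cells reach 551 to 567 CPM of Xist or 181 to 206 CPM of the Y-linked genes.

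The expression profiles of the members were alike across mice. Over 8120 genes the Pearson correlation of log2(CPM + 1) between mice ran from 0.975 (GA-aFuc 2 against Untreated 1) to 0.991. These are correlations across genes, which share a library and are not replicates. Of 1454 genes with at least 100 CPM in the members, 71 were more than 10-fold above the highest annotated cell type. Their leader was Cdh11, a mesenchymal cadherin, with 141 ± 14.1 CPM against 1.71 CPM in monocytes, the highest annotated type. Sparc, a collagen-binding matricellular protein, followed with 552 ± 36.0 CPM against 7.12 CPM in macrophages. Next came Cacna2d1 (158 CPM), a calcium channel subunit, Tenm3 (332 CPM), a teneurin adhesion protein, Meis2 (112 CPM), a homeobox factor, and Htra1 (404 CPM), a secreted serine protease. Dcn, Fbxl7, Tm4sf1, Col6a2, Col3a1, Wwtr1, Dpysl3, Bnc2, Rhox5, Me1, Ncam1, Mxra7, Map1b and Sdc2 completed the 20 leading genes. Among them Wwtr1 encodes the Hippo pathway coactivator TAZ, Bnc2 a zinc finger protein of mesenchymal cells and Sdc2 the proteoglycan syndecan 2. Rhox5, an X-linked homeobox gene known from reproductive tissue, averaged 309.5 ± 52.7 CPM against 7.02 CPM in mregDC, the highest annotated type. Because the members were picked on a matrix gene, these ratios describe them and carry no test.

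The minimum of 10 Col3a1 UMIs fell inside a continuous range. The 42 barcodes with 10 to 12 Col3a1 UMIs had a median of 64024 UMIs, 408 CPM of Dcn and 323 CPM of Sparc. The 88 unannotated barcodes just below, with 5 to 9 Col3a1 UMIs, had a median of 53660 UMIs, 340.0 CPM of Dcn and 230.1 CPM of Sparc. Barcodes with 1 to 4 UMIs were smaller, with a median of 9630.5 UMIs, 214 CPM of Dcn and 127 CPM of Sparc, and the 2030 with none had 17.4 and 37.4 CPM.

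Collagens beyond type III were broad. Of 18 matrix collagen genes, 12 averaged at least 10 CPM and 16 exceeded the macrophage level. The 3 chains of type VI collagen, a beaded-filament collagen of the pericellular matrix, were even across mice: Col6a1 averaged 339.5 ± 23.2 CPM, Col6a3 251 ± 12.6 CPM and Col6a2 246 ± 13.3 CPM. Of the type V chains, which regulate fibril diameter, Col5a3 averaged 169.7 ± 16.5 CPM and Col5a1 164 ± 26.9 CPM, but Col5a2 only 7.63 ± 6.96 CPM, with 41.2% of its UMIs in a single barcode. The basement membrane chains Col4a1 and Col4a2 averaged 1.72 and 1.67 CPM. The whole list summed to between 2078 and 2687 CPM per mouse, against 77.8 CPM in macrophages.

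The enzymes that fold and modify collagen accompanied it. Serpinh1, the collagen chaperone HSP47, averaged 523 ± 25.1 CPM against 6.01 CPM in macrophages. P4ha1, a prolyl hydroxylase subunit, averaged 189.7 ± 7.41 CPM, Plod2, a lysyl hydroxylase, 164 ± 22.3 CPM, and Pcolce, which speeds removal of the procollagen propeptide, 154 ± 11.6 CPM. In contrast, the crosslinking enzyme gene Lox averaged 1.32 CPM, with 85.5% of its UMIs in a single barcode. Among glycoproteins, Fn1 (fibronectin) averaged 244 ± 17.9 CPM, Fbn1 (fibrillin 1) 162 ± 21.2 CPM and Vcan (versican) 134 ± 11.1 CPM, while Eln (elastin) averaged 0.398 CPM and Fmod (fibromodulin) was at 0. Proteolysis was represented by inhibitors and membrane-bound or gelatinase enzymes. Serpinf1, which encodes PEDF, averaged 388 ± 43.4 CPM, Timp2 353 ± 37.2 CPM, Mmp14 133 ± 7.57 CPM and Timp1 119.5 ± 13.3 CPM. Mmp13, a collagenase, averaged 1.30 CPM in the members and 40.5 CPM in macrophages.

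Contractile genes were few. Tpm1 and Tpm2, which encode tropomyosins, averaged 605 ± 64.4 CPM and 155 ± 9.25 CPM, and Cnn2 60.3 ± 8.67 CPM, but the other 9 of 12 listed genes, Acta2, Tagln and Myh11 among them, averaged under 5 CPM. Inflammatory fibroblast genes were mixed. The chemokine genes Ccl2 and Ccl7 averaged 274 ± 49.4 CPM and 67.0 ± 11.2 CPM, below the macrophage values of 652 and 543 CPM. Csf1, the macrophage growth factor, averaged 67.0 ± 6.60 CPM against 7.06 CPM in macrophages, and Has2, a hyaluronan synthase, 53.4 ± 8.58 CPM against 0.494 CPM in macrophages. Il6 averaged 0.505 CPM and Ccl11 was at 0. Of genes known from adventitial fibroblasts, Ly6a averaged 427 ± 35.9 CPM, Anxa3 127 ± 16.1 CPM, Ly6c1 124 ± 25.7 CPM and Cd34 95.7 ± 6.91 CPM, while the progenitor markers Pi16 and Dpp4 averaged under 1 CPM. Ly6c1 and Ly6c2 are near-identical copies, so reads could have been split between them.

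Signalling receptors were led by Ddr2, a collagen receptor kinase, with 145 ± 11.3 CPM, and Fgfr1 with 131 ± 13.1 CPM. Lrp1 averaged 74.0 ± 8.20 CPM and Ifnar2, a type I interferon receptor chain, 59.7 ± 2.25 CPM. Both chains of the interferon gamma receptor were present: Ifngr1 had 49.0 and 58.6 CPM with GA-aFuc, 46.8 and 49.3 CPM with GITR/Syn GA-aFuc, 43.0 CPM with N297A and 48.4 CPM for Untreated, and Ifngr2 averaged 32.5 ± 2.79 CPM. Of the TGF-β family, the activin subunit gene Inhba averaged 218 ± 32.0 CPM, Tgfbr2 77.2 ± 4.22 CPM, Smad7, an inhibitor of the pathway, 60.9 ± 11.4 CPM, and the secreted target Tgfbi 60.7 ± 8.92 CPM, while macrophages had 1323 CPM of Tgfbi. Ccn2, a TGF-β target of activated fibroblasts, averaged 1.61 CPM.

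A minority of 14 members carried a distinct set of stromal transcripts. They were picked after their values were seen as the barcodes with at least 2 UMIs of Lum, Rgs5, Acta2 or Col5a2, and they are described without a test. They came from GA-aFuc mouse 1 (2 barcodes), GITR/Syn GA-aFuc mouse 1 (1), GITR/Syn GA-aFuc mouse 2 (3), the N297A mouse (6) and the Untreated mouse (2), and their median was 47692 UMIs. Although they are 2.72% of the members, they held 92.3% of all Lum UMIs, 97.9% of Mgp, 92.0% of Rgs5, 99.2% of Meg3 and 57.2% of Col1a2. Mgp encodes matrix Gla protein, Rgs5 is a pericyte marker and Meg3 a long noncoding RNA. Their Col1a1 stood at 2829 CPM and their Col1a2 at 2351 CPM, against 163 and 33.9 CPM in the other members. Dcn had 482 CPM in the 14 and 457.5 CPM in the others. Ddx3y, a Y-linked gene, had 14.1 CPM in the 14 and 1.22 CPM in the others, on 8 UMIs in the 14. Xist was higher in them too, with 15.8 CPM in the 14 on 9 UMIs and 3.48 CPM in the others. Calls for Mgp, Rgs5, Meg3, Igfbp7, Slit3, Adam12 and Col1a2 in the comparisons below rest largely on these barcodes.

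Clustering of the members among themselves gave 6 groups, each with barcodes from all 6 mice. The genes that define a group describe it and are not a result. The largest, 187 barcodes, was led by Cxcl9, Col1a1, Ccl5 and Col1a2, with Postn, Ly6c1 and Ifit1 also among its leaders. It had 511 CPM of Col1a1 and 1388 CPM of Col3a1. A group of 77 barcodes was led by the replication-dependent histone genes H1f5, H2ac24 and H2ac8 and by Top2a, and was the deepest at a median of 81864 UMIs. Another of 140 barcodes was led by the mitotic genes Cenpa, Cdc20, Hmmr and Ccnb2. In these 2 groups Col1a1 stood at 84.8 and 47.4 CPM. A group of 56 barcodes was led by Ero1a, Hmox1, Bnip3, Mt1 and Mt2, genes known to respond to low oxygen, haem or metal. A group of 32 barcodes had a median of 20.6% mitochondrial UMIs and 13829 UMIs. The smallest, 22 barcodes, was led by Cd74, C1qa and Fcer1g, with 2492 CPM of pan-leukocyte and 3628 CPM of macrophage genes and a median of 6.5 Ptprc UMIs. Its matrix collagens still summed to 2106 CPM at a median of 66978 UMIs. Whether these 22 barcodes held a second cell was not tested.

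**Figure D4:**
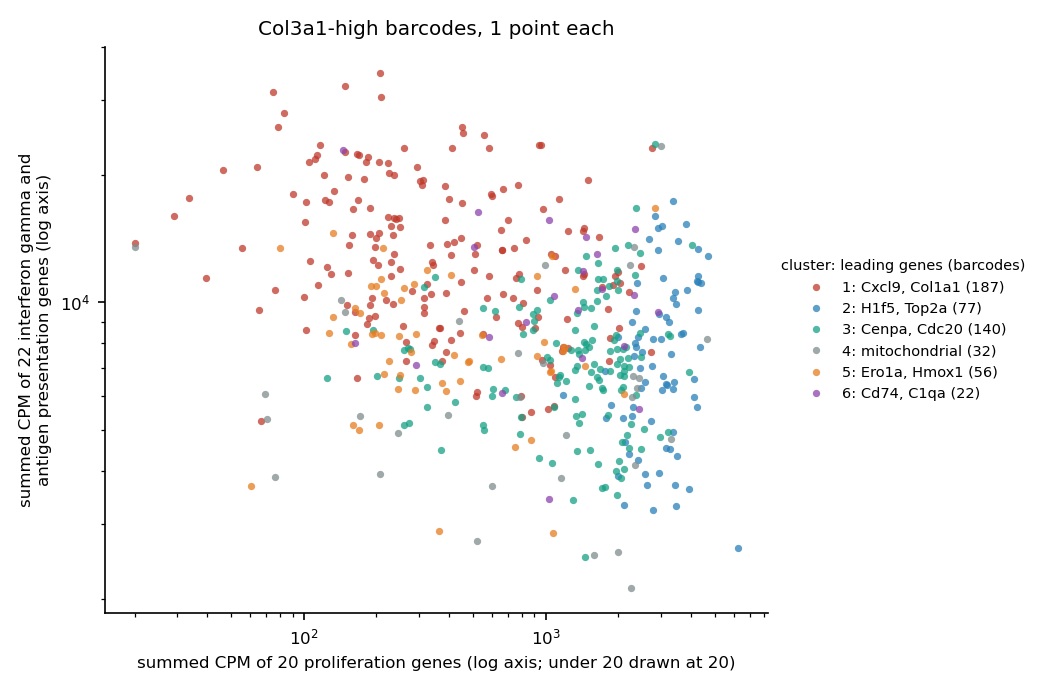
Each point is 1 of the 514 Col3a1-high barcodes, placed by its summed CPM of 20 proliferation genes (log x axis, values under 20 drawn at 20) and of 22 interferon gamma and antigen presentation genes (log y axis), and coloured by cluster. The 187 barcodes led by Cxcl9 and Col1a1 lie high on the interferon axis, and the 77 led by H1f5 and Top2a lie at the right.

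Within the members, interferon-response genes spanned a wide range. Interferon gamma, made by T and NK cells, acts through its receptor to raise MHC class I antigen presentation, guanylate-binding proteins and immunity-related GTPases. The 22 listed genes of this response summed to 5042, 7634, 10456 and 17307 CPM in 4 near-equal groups of the members ordered from the lowest to the highest sum. In the same order Dcn had 306, 386, 497 and 725 CPM. Ly6c1 followed the same order, with 23.5, 58.1, 129 and 306 CPM, whereas Col1a1 did not, with 216, 118, 164 and 394 CPM. Median UMIs per barcode ran the other way, at 70411, 64244.5, 55720 and 46418. Ptprc had 9.81, 10.3, 15.2 and 19.9 CPM. Across all 514 barcodes the Spearman correlation of the interferon gamma sum was 0.76 with 18 type I interferon genes (0.74 to 0.80 within single mice), 0.37 with Dcn (0.09 to 0.57) and −0.33 with the proliferation genes (−0.70 to −0.11). With the glycolysis and hypoxia genes it was 0.04. The barcodes share a library and the sums share a depth, with which the interferon sum correlated at −0.35, so these are descriptions.

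The share of members showed no difference between treatments beyond the spread between mice. With GA-aFuc they were 5.81% (95% exact interval 4.88% to 6.86%) and 2.31% (1.72% to 3.04%) of the barcodes that passed the UMI and hashtag minima. With GITR/Syn GA-aFuc they were 3.10% (2.40% to 3.93%) and 3.69% (2.95% to 4.54%), with N297A 5.65% (4.74% to 6.68%) and for Untreated 2.38% (1.79% to 3.12%). The GA-aFuc mice were the highest and the lowest of the 6. An exact two-sided permutation test over the 4 treatments gave p = 0.689, where 0.0222 is the smallest p that its 180 arrangements can give. In the 4 Fc-enhanced mice the share was 3.73% ± 1.50, and in the other 2 it was 4.02% ± 2.31 (SD; exact permutation p = 0.933, smallest possible 0.0667). With fewer than 3 mice in any treatment, only a large difference could have been found.

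For gene levels, UMIs of the members were summed per mouse and tested over 12544 genes with edgeR's quasi-likelihood test in 1 fit of all 6 mice. A gene counted as called at a Benjamini-Hochberg adjusted p under 0.05. With 1 N297A mouse and 1 Untreated mouse, their spread is assumed to equal that of the paired treatments, and a difference from either is a difference from that single mouse. Both comparisons with Untreated share this mouse, and both GA-aFuc comparisons share the GA-aFuc mice, so their results are given side by side and not as independent support. The mice also differed in a way the treatments do not explain: by their leukocytes, 1 of the 2 mice of each Fc-enhanced antibody was of the Xist type, and the N297A and Untreated mice were both of the Y-linked type. A term for this type was added after seeing the data and leaves 1 residual degree of freedom. It takes up the shared part of the difference between the 2 mice of each Fc-enhanced antibody, the only difference within treatments here. Calls made with the term therefore do not measure the full spread between mice and are no check of the calls below. The term kept all calls of the 5 comparisons. It gave 201 calls in GA-aFuc against Untreated, 116 in GA-aFuc against N297A, 165 in GITR/Syn GA-aFuc against Untreated, 83 in GITR/Syn GA-aFuc against GA-aFuc and 127 for Fc-enhanced against the other mice, against the 15, 12, 5, 0 and 5 reported below.

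In GA-aFuc against Untreated, 15 of 12544 genes were called (0.12%), of which 4 were higher (0.0319%) and 11 lower (0.0877%). Ier3, an immediate early gene, had the smallest p of the 4 higher genes. It had 96.3 and 113 CPM with GA-aFuc, 88.4 and 79.0 CPM with GITR/Syn GA-aFuc, 107 CPM with N297A and 26.2 CPM for Untreated, so that the Untreated mouse stood below all 5 others (log2 fold change 1.95 ± 0.18 (SE), edgeR adjusted p = 0.000661). The Ier3 call held under 16 of 17 alternatives and was lost at a hashtag minimum of 95% (edgeR adjusted p = 0.0667). Bnip3, a mitochondrial protein induced by hypoxia, had 126 and 114 CPM with GA-aFuc, 105 and 114 CPM with GITR/Syn GA-aFuc, 116 CPM with N297A and 52.4 CPM for Untreated. Again the Untreated mouse was lowest and the other 5 overlapped (log2 fold change 1.18 ± 0.15 (SE), edgeR adjusted p = 0.00663). The Bnip3 call held under 14 of 17 alternatives and was lost at a Col3a1 minimum of 20 (edgeR adjusted p = 0.115), with equal barcodes per mouse (edgeR adjusted p = 0.109) and at a hashtag minimum of 95% (edgeR adjusted p = 0.0667). Hmox1, the haem-degrading enzyme, had 51.2 and 38.8 CPM with GA-aFuc, 21.8 and 22.9 CPM with GITR/Syn GA-aFuc, 32.7 CPM with N297A and 11.1 CPM for Untreated (log2 fold change 2.04 ± 0.25 (SE), edgeR adjusted p = 0.00502), with 20.6% of its UMIs in 1 GA-aFuc barcode. At a Col3a1 minimum of 20 the Hmox1 fold change was 1.24 and not called (edgeR adjusted p = 0.593). Rorb, a nuclear receptor gene, had 118 and 74.4 CPM with GA-aFuc, 97.4 and 78.4 CPM with GITR/Syn GA-aFuc, 67.1 CPM with N297A and 31.1 CPM for Untreated (log2 fold change 1.66 ± 0.26 (SE), edgeR adjusted p = 0.0274), and at most 0.882 CPM in the macrophages of any mouse. The Rorb call was lost without the 5% of members with the most UMIs (edgeR adjusted p = 0.242). At a hashtag minimum of 95% none of these 4 genes was called.

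Bnip3 belongs to a list of genes of glycolysis and the response to low oxygen. All 20 glycolysis and hypoxia genes had a positive log2 fold change in GA-aFuc against Untreated, with a median of 0.32 beside 0.00 over all genes, but only Bnip3 was called, while 9 of the 20 had an unadjusted p under 0.05 against 6.42% of all genes. The Untreated mouse was the lowest of the 6 in 19 of the 20 genes. Its rank over all genes was not counted, and the listed genes of 1 mouse are not separate observations. Ndrg1, a hypoxia-induced stress gene, had 105 and 93.8 CPM with GA-aFuc, 105 and 82.5 CPM with GITR/Syn GA-aFuc, 103 CPM with N297A and 52.7 CPM for Untreated (log2 fold change 0.91 ± 0.17 (SE), edgeR adjusted p = 0.0907). Vegfa, the endothelial growth factor, had 57.8 and 53.4 CPM with GA-aFuc, 66.5 and 56.1 CPM with GITR/Syn GA-aFuc, 45.9 CPM with N297A and 31.1 CPM for Untreated, and Gapdh, the glycolytic enzyme, had 2161 and 2186 CPM with GA-aFuc, 2061 and 2325 CPM with GITR/Syn GA-aFuc, 2090.1 CPM with N297A and 1992 CPM for Untreated. In each of these 3 genes the N297A mouse also stood above the Untreated mouse, so the pattern sets the single Untreated mouse apart. In macrophages of the same mice Bnip3 had 102 and 222 CPM with GA-aFuc, 61.4 and 125 CPM with GITR/Syn GA-aFuc, 135 CPM with N297A and 77.3 CPM for Untreated, where the Untreated mouse was not the lowest. Vegfa in macrophages had 84.7 and 129.9 CPM with GA-aFuc, 98.8 and 86.6 CPM with GITR/Syn GA-aFuc, 74.7 CPM with N297A and 59.8 CPM for Untreated, and Ier3 had 137 and 333 CPM with GA-aFuc, 143 and 140 CPM with GITR/Syn GA-aFuc, 131 CPM with N297A and 89.1 CPM for Untreated, and in both the Untreated mouse was the lowest there too. The macrophage sum of the 20 genes was lowest in GITR/Syn GA-aFuc mouse 1, at 4282.7 CPM against 4975.2 CPM for Untreated. Ndrg1 and Hmox1 in macrophages were also lowest in GITR/Syn GA-aFuc mouse 1. Of the 56 barcodes in the group led by Ero1a, Hmox1 and Bnip3, 13 and 4 came from the GA-aFuc mice, 7 and 11 from the GITR/Syn GA-aFuc mice, 19 from the N297A mouse and 2 from the Untreated mouse. Since Bnip3 and Hmox1 define that group, these counts restate their levels and are no separate result, and the part of the groups' make-up in the differences between mice was not tested.

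Of the 11 genes lower in GA-aFuc than in Untreated, 5 rested on few barcodes. Mgp had 188 of its 195 UMIs, Rgs5 46 of 50 and Sparcl1 40 of 42 in 1 Untreated barcode, while Meg3, with 107 of its 126 UMIs in 1 N297A barcode, was at 0 in both GA-aFuc mice and had 5.89 CPM for Untreated. Igfbp7 had 39.7% of its UMIs in 1 Untreated barcode, and without the 14 stromal barcodes its log2 fold change of −3.95 became 0.19. The others were spread over more barcodes, though the Untreated value of Ifit2, given last here, rests in part on 1 barcode. Rgcc, a cell cycle regulator, had 39.2 and 35.6 CPM with GA-aFuc, 50.6 and 57.1 CPM with GITR/Syn GA-aFuc, 49.0 CPM with N297A and 93.9 CPM for Untreated (log2 fold change −1.33 ± 0.16 (SE), edgeR adjusted p = 0.00502). H2ac24, a replication-dependent histone, had 99.6 and 94.6 CPM with GA-aFuc, 123 and 100.0 CPM with GITR/Syn GA-aFuc, 116 CPM with N297A and 191 CPM for Untreated (log2 fold change −0.99 ± 0.13 (SE), edgeR adjusted p = 0.00726), and H2ac8, H2ac4 and H1f1 were called in the same direction. Histone genes have near-identical copies, so the counts of single members are uncertain. Of 20 proliferation genes, 18 had a negative fold change, with a median of −0.46. An unadjusted p under 0.05 was found for 9 of them, against 6.42% of all genes, and 0 were called. Their sum was uneven between the GA-aFuc mice, at 1500 and 1079.5 CPM. It was 1525 and 1346 CPM with GITR/Syn GA-aFuc, 1463.5 CPM with N297A and 1740 CPM for Untreated. Matrix collagens shared no direction: of 16 matrix collagen genes tested, 9 were positive and 7 negative with a median of 0.04, and 0 were called. Of 17 genes of the TGF-β list 15 were positive with a median of 0.35, and 0 were called. The 8 pan-leukocyte genes were all positive with a median of 0.74 and the 6 MHC class II genes with a median of 0.33, again with 0 called, and the part of leukocyte RNA in the other differences was not tested beyond members with 0 Ptprc UMIs, in which 9 genes were called. Ifit2, a type I interferon target, had 48.3 and 27.5 CPM with GA-aFuc, 48.5 and 45.8 CPM with GITR/Syn GA-aFuc, 42.9 CPM with N297A and 108 CPM for Untreated (log2 fold change −1.43 ± 0.21 (SE), edgeR adjusted p = 0.019). A single Untreated barcode held 162 of the 1533 Ifit2 UMIs of all 6 mice, and so a larger share of the Untreated mouse's own. The fit was not repeated without that barcode alone.

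The count of 15 was 0 at a hashtag minimum of 95%. Leaving out 1 of the 4 Fc-enhanced mice raised the count in each case. Such a fit keeps 1 residual degree of freedom instead of 2 and takes the spread from 1 pair of mice. This holds also where the mouse left out is not in the comparison, so the rises do not show that the calls depend on that mouse. The same limit applies to such counts in the comparisons below.

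In GA-aFuc against N297A, 12 genes were called (0.0957%), 5 higher (0.0399%) and 7 lower (0.0558%). Of the 5 higher genes, 2 belong to the interferon gamma list. Iigp1, an immunity-related GTPase, had 656 and 503 CPM with GA-aFuc, 537 and 514 CPM with GITR/Syn GA-aFuc, 304 CPM with N297A and 709 CPM for Untreated, with the N297A mouse below all 5 others (log2 fold change 0.90 ± 0.14 (SE), edgeR adjusted p = 0.027). Cd274, which encodes the checkpoint ligand PD-L1, had 63.4 and 50.1 CPM with GA-aFuc, 51.8 and 43.1 CPM with GITR/Syn GA-aFuc, 26.1 CPM with N297A and 54.3 CPM for Untreated, and again N297A was lowest (log2 fold change 1.12 ± 0.17 (SE), edgeR adjusted p = 0.027). All 22 genes of the list had a positive fold change, with a median of 0.43 beside 0.00 over all genes, and 16 of them had an unadjusted p under 0.05 against 4.86% of all genes. The N297A mouse was the lowest of the 6 in 19 of the 22 genes, and the Untreated mouse the highest in 13. How often these mice were lowest or highest over all genes was not counted. Genes of 1 response read in 1 mouse are not separate observations. Against Untreated, 4 of the 22 were positive in GA-aFuc and 0 of the 22 in GITR/Syn GA-aFuc, with medians of −0.26 and −0.23, and 0 were called in either. So most of the 22 genes were lowest in the N297A mouse and highest in the Untreated mouse.

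Of these genes, Irf1, a transcription factor induced by interferon gamma, had 182 and 137 CPM with GA-aFuc, 189 and 139 CPM with GITR/Syn GA-aFuc, 116 CPM with N297A and 188 CPM for Untreated. Gbp2, a guanylate-binding protein, had 261 and 158 CPM with GA-aFuc, 252 and 167 CPM with GITR/Syn GA-aFuc, 119 CPM with N297A and 257 CPM for Untreated. Igtp, a further immunity-related GTPase, had 137 and 108 CPM with GA-aFuc, 116 and 103 CPM with GITR/Syn GA-aFuc, 74.2 CPM with N297A and 156 CPM for Untreated (log2 fold change 0.71 ± 0.15 (SE), edgeR adjusted p = 0.142). Cxcl10, a chemokine that draws T cells, had 1029 and 831 CPM with GA-aFuc, 838 and 1019.6 CPM with GITR/Syn GA-aFuc, 787 CPM with N297A and 1370.5 CPM for Untreated. All 4 had their lowest value in the N297A mouse. Guanylate-binding proteins and immunity-related GTPases are families with similar copies, so their counts carry that uncertainty.

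The promoters of these 4 genes show the 2 kinds of motif through which interferons are known to act: the GAS motif of interferon gamma targets, searched as TTCNNNGAA, and the ISRE motif bound by IRF factors, searched as GAAA followed after any 2 bases by GAAA, each on both strands. Sequences are from RefSeq on GRCm38.p6, which is not the GRCm39 build of the counts, and run 5′ to 3′ on the gene's strand from 250 bases before to 50 after the annotated start, with the matches in capitals. Irf1 lies at chr11:53769764-53770063 (+) with a GAS-like match 90 bases before the start. Gbp2 lies at chr3:142620413-142620712 (+) with an ISRE-like match on the opposite strand, 59 bases before. Igtp lies at chr11:58199306-58199605 (+) with a GAS-like match 45 and an ISRE-like match 34 bases before. Cxcl10 lies at chr5:92348840-92349139 (−) with an ISRE-like match 213 bases before. These 4 are shown as listed genes that hold a match and had their lowest value in the N297A mouse.
Irf1: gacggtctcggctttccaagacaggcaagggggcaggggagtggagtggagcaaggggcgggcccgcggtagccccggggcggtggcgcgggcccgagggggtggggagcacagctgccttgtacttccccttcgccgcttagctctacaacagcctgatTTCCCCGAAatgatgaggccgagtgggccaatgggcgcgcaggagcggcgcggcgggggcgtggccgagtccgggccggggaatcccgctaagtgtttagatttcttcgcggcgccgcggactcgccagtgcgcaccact
Gbp2: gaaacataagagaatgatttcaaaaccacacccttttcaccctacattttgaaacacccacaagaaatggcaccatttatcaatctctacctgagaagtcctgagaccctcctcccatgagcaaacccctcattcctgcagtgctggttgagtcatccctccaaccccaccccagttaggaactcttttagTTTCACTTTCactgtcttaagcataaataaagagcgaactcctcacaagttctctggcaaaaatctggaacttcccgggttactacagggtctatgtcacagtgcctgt
Igtp: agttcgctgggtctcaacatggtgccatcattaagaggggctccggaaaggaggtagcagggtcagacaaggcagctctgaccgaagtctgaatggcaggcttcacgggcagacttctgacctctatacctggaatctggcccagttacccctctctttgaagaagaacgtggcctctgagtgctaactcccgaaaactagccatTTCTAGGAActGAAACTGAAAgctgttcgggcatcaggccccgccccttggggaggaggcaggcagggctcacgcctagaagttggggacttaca
Cxcl10: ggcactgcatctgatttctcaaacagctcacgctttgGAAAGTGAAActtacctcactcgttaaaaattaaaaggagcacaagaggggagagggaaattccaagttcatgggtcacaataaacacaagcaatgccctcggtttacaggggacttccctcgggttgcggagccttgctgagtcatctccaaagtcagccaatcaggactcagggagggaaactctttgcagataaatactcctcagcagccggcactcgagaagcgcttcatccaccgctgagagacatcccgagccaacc
Of the 22 listed genes, 17 had a promoter in the table. A GAS-like match stood in 5 (Gbp5, Gbp7, Igtp, Irf1 and Psmb8) and an ISRE-like match in 8 (B2m, Cxcl10, Gbp2, Gbp3, Gbp5, Gbp7, Igtp and Irgm1). Over 32851 RefSeq promoters of 300 bases, 8.30% held the first and 3.44% the second. A match says only that these letters are in the window.

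**Figure D5:**
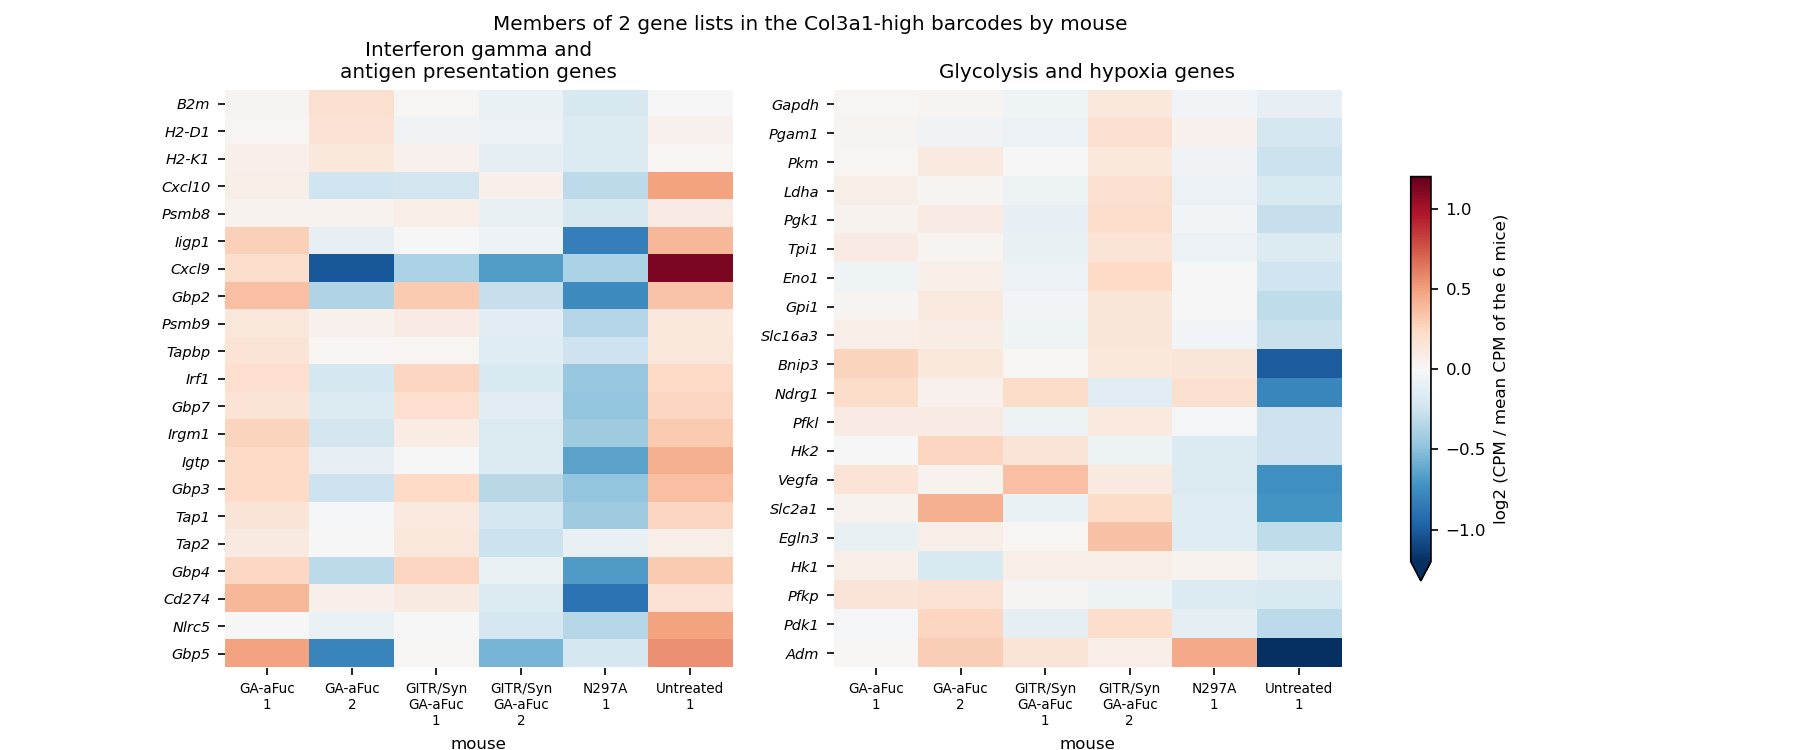
Rows are genes, columns the 6 mice, and colour the log2 ratio of the mouse's CPM in the Col3a1-high barcodes to the mean of the 6 mice, for 21 interferon gamma and antigen presentation genes (left) and 20 glycolysis and hypoxia genes (right). The N297A column is the lowest in 18 of the 21 genes drawn on the left, and the Untreated column the lowest in 19 of 20 on the right; 1 value of Adm is below the colour scale.

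In macrophages of the same mice the N297A mouse was also the lowest for Iigp1, Cd274, Irf1, Gbp2, Igtp and the sum of the 22 genes. For Cxcl10 and Cxcl9 GA-aFuc mouse 2 was the lowest in macrophages, with 304 and 271 CPM against 436 and 291 CPM with N297A. Iigp1 in macrophages had 637 and 361 CPM with GA-aFuc, 560.4 and 492 CPM with GITR/Syn GA-aFuc, 223 CPM with N297A and 669 CPM for Untreated, and Cd274 had 245 and 184 CPM with GA-aFuc, 222 and 169.6 CPM with GITR/Syn GA-aFuc, 74.4 CPM with N297A and 185 CPM for Untreated. The 22-gene sum was 10374 and 9943 CPM with GA-aFuc, 9785 and 9066 CPM with GITR/Syn GA-aFuc, 8031 CPM with N297A and 11068 CPM for Untreated in the members, and 16034 and 12388 CPM with GA-aFuc, 15524 and 14397 CPM with GITR/Syn GA-aFuc, 12047 CPM with N297A and 17276 CPM for Untreated in macrophages. With the term for the sex-linked type of the leukocytes, the fold changes in the members were 0.80 for Iigp1 and 0.96 for Cd274.

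The other 3 genes higher than in N297A differ from these. Cxcl2, a neutrophil-attracting chemokine, had 22.3 and 26.7 CPM with GA-aFuc, 15.6 and 15.1 CPM with GITR/Syn GA-aFuc, 5.34 CPM with N297A and 9.16 CPM for Untreated (log2 fold change 2.12 ± 0.25 (SE), edgeR adjusted p = 0.00463), and in members with 0 Ptprc UMIs the fold change was 0.59 with an edgeR adjusted p of 1. Ctss, a lysosomal protease of macrophages, had 98.2 and 86.9 CPM with GA-aFuc, 57.0 and 62.9 CPM with GITR/Syn GA-aFuc, 47.6 CPM with N297A and 61.8 CPM for Untreated (log2 fold change 0.94 ± 0.14 (SE), edgeR adjusted p = 0.027), against 3693 CPM in macrophages, and its fold change was −0.00 in members with 0 Ptprc UMIs. In the same comparison all 8 pan-leukocyte genes were positive, with a median of 0.71, and 0 were called. Among Ptprc-free members the Iigp1 and Cd274 fold changes were 0.98 and 1.25, but neither passed (edgeR adjusted p = 0.135 and 0.133). The fifth gene was a human feature of the combined reference, PLCG2, with 210.4 and 203 CPM with GA-aFuc, 275 and 252 CPM with GITR/Syn GA-aFuc, 124 CPM with N297A and 199 CPM for Untreated (log2 fold change 0.70 ± 0.12 (SE), edgeR adjusted p = 0.0452). Which mouse transcript gave UMIs to this human feature was not traced.

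Matrix genes were among the 7 lower than in N297A. Postn, which encodes the matricellular protein periostin, had 25.1 and 27.5 CPM with GA-aFuc, 28.9 and 27.2 CPM with GITR/Syn GA-aFuc, 64.5 CPM with N297A and 28.8 CPM for Untreated (log2 fold change −1.35 ± 0.15 (SE), edgeR adjusted p = 0.00392), with the N297A mouse above all 5 others and 17.3% of the UMIs in 1 of its barcodes. Col1a2 was called too (log2 fold change −2.29 ± 0.34 (SE), edgeR adjusted p = 0.0241), with 41.0% of its UMIs in 1 N297A barcode. Meg3 had 107 of its 126 UMIs, Cthrc1 104 of 107 and Adam12 74 of 104 in 1 N297A barcode, and Slit3 70.8%. Without the 14 stromal barcodes the Slit3 fold change of −5.41 became 0.02. Igfbp5 completed the list, at 1.02 and 0 CPM with GA-aFuc, 7.80 and 2.89 CPM with GITR/Syn GA-aFuc, 16.2 CPM with N297A and 2.62 CPM for Untreated. Of 16 matrix collagen genes tested, 9 were positive and 7 negative with a median of 0.04, and Col1a2 alone was called.

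This count of 12 was 33 without GA-aFuc mouse 2, 65 without GITR/Syn GA-aFuc mouse 1 and 115 without GITR/Syn GA-aFuc mouse 2. With equal numbers of barcodes per mouse it was 1, and with DESeq2 it was 4. The Iigp1 call held under 12 of 17 alternatives. It was lost at a Col3a1 minimum of 20, with 0 Ptprc UMIs, with equal barcodes per mouse, at a hashtag minimum of 95% and without GA-aFuc mouse 1. The Cd274 call also held under 12 of 17. It was lost with DESeq2, with 0 Ptprc UMIs, with equal barcodes per mouse, at a hashtag minimum of 95% and without GA-aFuc mouse 1.

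In GITR/Syn GA-aFuc against Untreated, 5 genes were called (0.0399%), 2 higher (0.0159%) and 3 lower (0.0239%). The higher ones were Ier3 (log2 fold change 1.70 ± 0.19 (SE), edgeR adjusted p = 0.00356) and Bnip3 (log2 fold change 1.09 ± 0.15 (SE), edgeR adjusted p = 0.0273), with the values given above. Bnip3 was not called at a Col3a1 minimum of 20 (edgeR adjusted p = 0.166) or with equal barcodes per mouse (edgeR adjusted p = 0.0828), and at a hashtag minimum of 95% neither gene was called. The lower ones were Mgp, Rgs5 and Sparcl1, which rest on 1 Untreated barcode. All 20 glycolysis and hypoxia genes were positive, with a median of 0.35 and 13 at an unadjusted p under 0.05 against 5.80% of all genes, and Bnip3 was called. Of 18 type I interferon genes, 17 were negative with a median of −0.26, and of 20 proliferation genes 17 were negative with a median of −0.29, with 0 called in both. The count of 5 was 20 without GA-aFuc mouse 1, 36 without GA-aFuc mouse 2, 79 without GITR/Syn GA-aFuc mouse 1 and 84 without GITR/Syn GA-aFuc mouse 2.

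The 2 Fc-enhanced antibodies, called agonist and non-agonist, could be compared with 2 mice each. In GITR/Syn GA-aFuc against GA-aFuc, 0 of 12544 genes were called with edgeR (0%) and 0 with DESeq2, while 554 had an unadjusted edgeR p under 0.05, which is 4.42% of the genes. The gene with the smallest p was Tmem176b, a membrane protein gene, with 83.5 and 94.7 CPM with GITR/Syn GA-aFuc against 146 and 169 CPM with GA-aFuc (log2 fold change −0.76 ± 0.12 (SE), edgeR adjusted p = 0.185). Hmox1 had 21.8 and 22.9 CPM with GITR/Syn GA-aFuc against 51.2 and 38.8 CPM with GA-aFuc (log2 fold change −1.01 ± 0.16 (SE), edgeR adjusted p = 0.185). Gas7 had 3.78 and 4.54 CPM with GITR/Syn GA-aFuc against 12.5 and 12.9 CPM with GA-aFuc (log2 fold change −1.54 ± 0.27 (SE), edgeR adjusted p = 0.288). Srgn, a proteoglycan of leukocyte granules, had a log2 fold change of −0.78 (edgeR adjusted p = 0.428), which was 0.04 in members with 0 Ptprc UMIs. Slit3 had 4.97 and 2.68 CPM with GITR/Syn GA-aFuc against 0.382 and 0 CPM with GA-aFuc. None of these 5 passed. They were picked for the smallest p, so the lack of overlap between their mice is no support. With the term for the sex-linked type all 5 passed. That term takes up the shared difference between the mice of each antibody, so this is no separate support. Of the 8 pan-leukocyte genes 7 were negative with a median of −0.42, as were all 6 MHC class II genes with a median of −0.38 and all 5 monocyte genes with a median of −0.53, with 0 called, and their part in the differences above was not tested further. The interferon gamma list had 7 positive and 15 negative genes with a median of −0.07. A p that misses the threshold does not show that the antibodies act alike on these barcodes. Leaving out a mouse of either antibody leaves 1 mouse in that treatment and 1 residual degree of freedom, so calls made that way do not show a difference either.

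Setting the 4 Fc-enhanced mice against the N297A and the Untreated mouse gave 5 called genes (0.0399%), 3 higher (0.0239%) and 2 lower (0.0159%). Col1a1 was the matrix gene among them. Its 4 Fc-enhanced values, 74.9 to 179 CPM, lay below 374 CPM with N297A and 338 CPM for Untreated (log2 fold change −1.45 ± 0.20 (SE), edgeR adjusted p = 0.0298). Without the 14 stromal barcodes the fold change was −1.40 (edgeR adjusted p = 0.000102), so the difference was nearly as large without them. It was not called with DESeq2 (DESeq2 adjusted p = 1), among members with 0 Ptprc UMIs (−1.12, edgeR adjusted p = 0.671) or without the N297A mouse (edgeR adjusted p = 0.0735). Dcn had a fold change of 0.05 ± 0.14 (SE). Cxcl2 was higher (log2 fold change 1.44 ± 0.19 (SE), edgeR adjusted p = 0.029), as was the human PLCG2 feature (log2 fold change 0.56 ± 0.08 (SE), edgeR adjusted p = 0.0327). Neither was called without the N297A mouse (edgeR adjusted p = 0.31 and 0.778). The Cxcl2 call held under 12 of 18 alternatives. Its fold change was 0.56 in members with 0 Ptprc UMIs (edgeR adjusted p = 0.999) and 1.21 at a Col3a1 minimum of 20 (edgeR adjusted p = 0.689), and DESeq2 gave an adjusted p of 0.157. In the same comparison all 8 pan-leukocyte genes were positive with a median of 0.45, and all 8 macrophage genes with a median of 0.49, with 0 called in both. Ier3 was called as well (log2 fold change 0.80 ± 0.12 (SE), edgeR adjusted p = 0.0327), but its mice overlap, and without the Untreated mouse the sign turned to −0.22. Meg3, at 0 in all 4 Fc-enhanced mice, had 107 of its 126 UMIs in 1 N297A barcode. The count of 5 was 22 without GA-aFuc mouse 1, 25 without GA-aFuc mouse 2, 83 without GITR/Syn GA-aFuc mouse 1, 67 without GITR/Syn GA-aFuc mouse 2, 14 without the N297A mouse and 15 without the Untreated mouse.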

How the data were processed

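Cells of the 6 mice were hashed, pooled and sequenced as 1 10x 3′ library. The deposited values are UMI counts per feature and barcode, which the authors obtained per the file headers from Cell Ranger 9.0.0 and, per the submitters' processing notes, a combined GRCh38 and GRCm39 reference. The matrix held 2979617 barcodes and 72308 features (38606 human, 33696 mouse and 6 hashtag). The sources used here do not say how the deposited annotation was made. Library 2 rows were taken as the last 6 of 12 runs of rising barcodes, and the top hashtag matched the run's mouse in 10476 of 10476 cells, while 34 barcodes also occurred in the annotated cells of the other library.

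Counts were summed per mouse over the members and tested in edgeR 4.0.16 (limma 3.58.1, R 4.3.3) with filterByExpr, TMM scaling, glmQLFit and glmQLFTest, 1 coefficient per treatment, 2 residual degrees of freedom, and adjusted by Benjamini-Hochberg over 12544 genes at a threshold of 0.05. The common biological coefficient of variation was 0.0821. This step was also run on simulated counts whose spread came from this fit and was equal in all mice. That run cannot check whether the single N297A and Untreated mice are as variable as the others. P-values measure the spread between mice, and the fit takes the single N297A and Untreated mice to be as variable as the other treatments. Exact binomial intervals (95%) cover counting error only. Members were clustered with scanpy 1.11.5 (2000 variable genes, 20 principal components, 15 neighbours, Leiden resolution 0.5), and other steps used Python 3.11.15, numpy 2.4.6 and scipy 1.17.1. Promoters are from RefSeq.

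The members, gene lists and tests were chosen with earlier results of these data known, and 3 listed symbols were not found. Another listed gene counts in the sums and counts but is not reported here by itself. Named genes were, per comparison, the 5 or fewer most raised and most lowered called genes whose mice do not overlap (or, with fewer calls, the 5 smallest p), up to 4 per list by mean level, and the 20 leading genes. Other genes, such as Rgcc, Ifit2, H2ac24, Postn, Ndrg1 and Vegfa, were chosen after their values were seen. Alternatives were RLE size factors, no filter, a filter of 30 counts in 2 mice, DESeq2 1.42.0, Col3a1 minima of 5 and 20, a hashtag minimum of 95%, a UMI minimum of 1000, members with 0 Ptprc UMIs, members without the top 5% of UMIs, 50 barcodes per mouse and leaving out each mouse. A limit of 10% mitochondrial UMIs the removal of the 14 stromal barcodes and a term for mice whose annotated cells have more Xist than Y-linked UMIs were chosen after seeing the data.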

Additional observations from a re-analysis of the deposited data

How the results depend on the processing

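Counts of called genes moved with most choices. In GA-aFuc against Untreated the 15 calls became 121 with no filter, 8 with the stricter filter, 9 in members with 0 Ptprc UMIs, 0 at a hashtag minimum of 95%, 8 without the 14 stromal barcodes and 14 to 117 when a mouse was left out. In GA-aFuc against N297A the 12 became 123 with no filter, 4 with DESeq2, 3 with 0 Ptprc UMIs, 1 with equal barcodes per mouse, 3 at a hashtag minimum of 95%, 4 without the stromal barcodes and 11 to 115 when a mouse was left out. In GITR/Syn GA-aFuc against Untreated the 5 became 113 with no filter, 2 with the stricter filter, 12 with 0 Ptprc UMIs, 11 without the top 5% of UMIs, 16 with equal barcodes, 0 at a hashtag minimum of 95%, 3 without the stromal barcodes and 5 to 84 when a mouse was left out. In GITR/Syn GA-aFuc against GA-aFuc the 0 became 71 with no filter, 17 at a Col3a1 minimum of 20, 4 with equal barcodes and 0 to 74 when a mouse was left out. For Fc-enhanced against the other mice the 5 became 104 with no filter, 3 at a Col3a1 minimum of 20, 3 with 0 Ptprc UMIs, 1 at a hashtag minimum of 95% and 14 to 83 when a mouse was left out. With no filter, genes of few UMIs enter the test. A fit without 1 of the Fc-enhanced mice, or with a term for the sex-linked type, keeps 1 residual degree of freedom instead of 2. The cause of the other shifts was not tested. A term for the sex-linked type of the annotated cells gave 201, 116, 165, 83 and 127 calls in the same order. RLE size factors gave 15, 12, 5, 0 and 5 calls. The permutation p of the share ran from 0.2 to 1.0 when a mouse was left out. Signs reversed 6 times, on the log2 scale: Meg3 in GA-aFuc against Untreated at a hashtag minimum of 95% (0.00), Igfbp7 there without the stromal barcodes (0.19), Ctss in GA-aFuc against N297A with 0 Ptprc UMIs (−0.0032), Slit3 there without the stromal barcodes (0.0198), Srgn in GITR/Syn GA-aFuc against GA-aFuc with 0 Ptprc UMIs (0.0394), and Ier3 in Fc-enhanced against the other mice, which ran from −0.22 without the Untreated mouse to 1.82 without the N297A mouse. Of the single-gene values, 450 kept direction and side of the threshold, 80 lost their call and 18 gained one. The labels carry no replicate numbers that pair mice across treatments, and N297A and Untreated had 1 mouse each, both of the Y-linked type. The sex-linked type would match the mice of the 2 Fc-enhanced antibodies, and it entered only as the term above. Depth limits genes of few UMIs, and 1 or 2 mice per treatment limit every comparison.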
